A study of Mus musculus with 34 samples.

Results

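Primary mouse Sertoli cells cultured with vehicle were compared with Sertoli cells sorted directly from Nanos3-knockout testes. The members are the 4 arrays whose titles name these preparations, 2 of each, out of 34 arrays in the series. The cultured cells came from wild-type (WT) testes and received the vehicle of a retinoic acid (RA) treatment. The sorted cells came from Nanos3KO testes and were collected by fluorescence-activated cell sorting (FACS) with no culture. All donors were C57BL6/j mice of 6 to 8 weeks, and each sample was total RNA on its own one-colour Agilent array. The labels used here give no time in culture, no sort marker, no number of animals per sample and no description of the Nanos3 allele. Groups of 2 further arrays each lay outside the contrast and are quoted as levels. They are WT Sertoli cells cultured with RA for 24 hours, Sertoli cells sorted from WT testes, and whole testes. Their arrays entered the same fit, so their replicate spread is part of each SE and adjusted p.

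Within the seminiferous tubule, Sertoli cells are the somatic support cells. They enclose the germ cells, form the blood-testis barrier through tight junctions, answer to follicle-stimulating hormone and testosterone, and in the adult no longer divide. Nanos3 is an RNA-binding protein that germ cell precursors need to survive, so a Nanos3-null testis keeps its somatic cells while germ cells are scarce or absent. Both preparations were proposed as sources of Sertoli RNA with little germ cell RNA, one after plating and the other straight from the tissue.

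Culture was not the single difference between the groups. The genotype differed too, and the cultured arrays lay on slide 3, scanned on day 2, whereas the knockout arrays lay on slide 2, scanned on day 1. Culture, genotype, slide and scan day cannot be told apart in these 4 arrays. From 64.35% to 64.49% of spots were well above background on the cultured arrays, against 64.01% and 58.8% on the knockout arrays, where well above background is the mark the scanner software gives a spot. The knockout slide was noisier around its spots, with a median local-background pixel SD of 72.31 and 72.54, against 8.98 and 9.55 on the cultured slide. The 2 cultured arrays correlated at r = 0.9974 across tested genes, the 2 knockout arrays at r = 0.9663. Replicate differences had an SD of 0.25 for the cultured arrays and 0.87 for the knockout arrays on the log2 scale. Nothing in the labels says how the replicates were taken, so p-values measure a spread between arrays that may be partly technical. That spread is 1 estimate per gene shared by 5 groups. Outside the knockout group the SDs of replicate differences ran from 0.23 to 0.42, so the shared SE tends to understate the spread of the knockout arrays. In a fit without 1 knockout array the other has no replicate, and the SE comes from the other groups alone. A call gained in such a fit is therefore not read as a result.

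Levels are processed signals on a log2 scale set relative to the 75th percentile of their array, so that 0 is a signal at that percentile. Differences are cultured minus knockout on this log2 scale, each with its standard error (SE) and an adjusted p from limma over all tested genes. Of 33249 genes on the array, 20811 were tested, those whose probe passed this mark on both arrays of 1 side or of each. Both arrays of each side detected 17138 of them, 2562 were detected so only on the cultured side, and 1111 only on the knockout side. At an adjusted p under 0.05, 14375 genes differed, or 69.1% of those tested. Of these 6881 were higher in culture (33.1%) and 7494 lower (36.0%). Differences of at least 16-fold were called for 371 genes higher and 930 genes lower in culture.

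The number of calls sets the level against which each gene group below should be read. It depends on the spread shared with the other groups, and a fit of the 4 arrays alone gave 10606 calls. Slide and scan day may also enter it. The median difference over all tested genes was -0.029, with quartiles at -1.056 and 0.81. The share of calls that were higher in culture was 47.9%, and it rose to 61.9% when arrays were scaled on their median in place of the 75th percentile, which moved the median of all genes to 0.335. Differences near 0 therefore depend on the scaling. The plot of mean levels in the 2 preparations shows where the named groups lie.

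**Figure D1:**
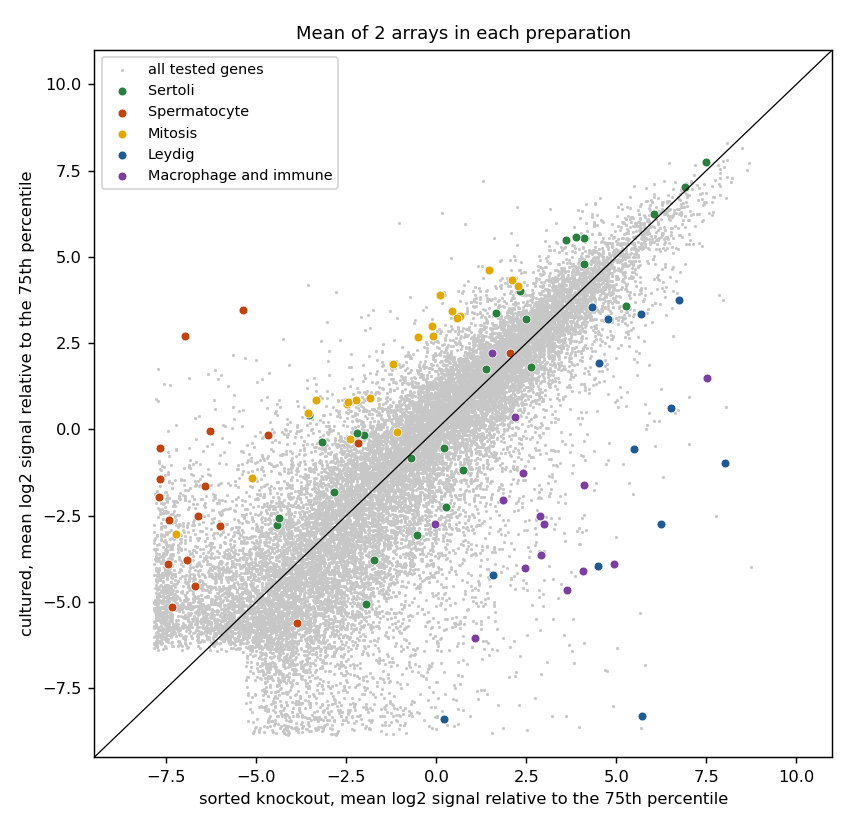
Mean log2 signal relative to the 75th percentile in cultured cells (vertical axis) against sorted knockout cells (horizontal axis), 2 arrays each, for all 20811 tested genes in grey and 5 gene lists in colour. Spermatocyte and mitosis genes lie mostly above the line of equality, Leydig and macrophage genes mostly below it, and Sertoli genes on both sides.

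Sertoli genes were detected in both preparations and differed in both directions. Of 29 listed Sertoli genes, 27 had a probe, and all 27 were well above background on all 4 arrays. In culture 13 were higher and 8 lower, with a median difference of 0.67, and 4 to 8 were lower when 1 array was left out. Summed over the list, the signal was 659 and 641 times the 75th percentile on the cultured arrays, against 492 and 520 on the knockout arrays. Beside these, summed Leydig signal was 50.5 and 52.1 on the cultured arrays and 1120 and 590 on the knockout arrays, and macrophage signal 10.2 and 10.7 against 221 and 497, while spermatocyte signal was 26.6 and 27.5 against 4.14 and 5.23. The part of these other cells in the Sertoli differences was not tested. Several transcription factors that set up and hold Sertoli fate were among those that rose. Other transcription factors of the list were lower, Nr5a1 by a difference of -0.75 (SE 0.21, adjusted p = 0.0161) and Gata1 by -2.53 (SE 0.19, adjusted p = 3.86e-05). Sox9, the testis-determining factor downstream of Sry, was at 3.38 and 3.36 in cultured cells and at 1.64 and 1.70 in knockout cells (difference 1.70, SE 0.13, adjusted p = 3.48e-05). Its relative Sox8 rose by 1.84 (SE 0.25, adjusted p = 0.000553). Dmrt1, which keeps Sertoli cells from turning into granulosa-like cells and is also made by spermatogonia, was at 0.32 and 0.50 in culture against -3.23 and -3.83 in knockout cells, a 15.3-fold difference (3.94, SE 0.23, adjusted p = 1.12e-05). Gata4 rose by 2.07 (SE 0.19) and Wt1, a zinc finger factor of the gonadal epithelium, by 0.71 (SE 0.15, adjusted p = 0.0047). For the 5 raised genes Sox9, Sox8, Dmrt1, Gata4 and Wt1 both cultured arrays lay above both knockout arrays. The same held for Clu, Vim and Kitl, which did not pass, and the share over all tested genes was not counted.

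The hormone and signalling genes of the Sertoli list went both ways. Fshr, the receptor for follicle-stimulating hormone, was at -0.46 and -0.27 in culture and at -3.01 and -3.33 in knockout cells (2.81, SE 0.39, adjusted p = 0.000603). Dhh, the hedgehog ligand for Leydig and peritubular cells, rose by 1.46 (SE 0.23) and the inhibin beta B subunit gene Inhbb by 1.67 (SE 0.22). Inha, the inhibin alpha subunit, went the other way, at 3.58 and 3.57 in culture against 4.65 and 5.88 in knockout cells (-1.69, SE 0.37, adjusted p = 0.0054). Gata1, a factor that adult Sertoli cells use in a stage-dependent way, fell to -2.26 and -2.25 in culture, against 0.15 and 0.40 in knockout cells (-2.53, SE 0.19, adjusted p = 3.86e-05). In RA-treated culture Gata1 stood at 0.94 and 0.83. The homeobox gene Rhox5, a classic androgen target, was at -3.16 and -2.94 in culture and at -1.12 and 0.01 in knockout cells (-2.50, SE 0.39, adjusted p = 0.00112), while cells sorted from WT testes held 2.68 and 3.43. Rhox5 was thus lowest in culture, higher in knockout cells and highest in WT cells, with no overlap between the 3 pairs of arrays.

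Several Sertoli transcripts differed little. Clu, a secreted chaperone, was at 7.78 and 7.72 in culture against 7.56 and 7.45 in knockout cells (0.25, SE 0.10, adjusted p = 0.0645), a difference that passed under quantile scaling (1.04, adjusted p = 0.000331). Vim (0.20, SE 0.13), the protease gene Ctsl (0.12, SE 0.11) and Kitl, the ligand for the germ cell receptor Kit (0.37, SE 0.28), did not pass either, although Vim (0.56), Ctsl (0.48) and Kitl (0.73) passed under median scaling. Trf, the transferrin that carries iron to germ cells, was lower in culture by a small margin (-0.84, SE 0.28, adjusted p = 0.0325) that was lost under median scaling (-0.47, adjusted p = 0.268), with normexp (-0.72, adjusted p = 0.0576), without the second knockout array (-0.39, adjusted p = 0.0807) and without either cultured array (-0.78 and -0.89, adjusted p = 0.124 and 0.0896). Amh, the hormone of immature Sertoli cells, was at -2.72 and -2.79 in culture against -4.32 and -4.55. Its difference of 1.68 (SE 0.47, adjusted p = 0.0158) became -0.11 (adjusted p = 0.717) with another background correction, called normexp, and missed the threshold without the second knockout array (1.57, adjusted p = 0.0604) or either cultured array (adjusted p = 0.0671 and 0.0594). The growth factor gene Gdnf, which keeps spermatogonial stem cells, differed by 1.81 (SE 0.13, adjusted p = 2.65e-05), and by 0.26 with normexp (adjusted p = 0.272).

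**Figure D2:**
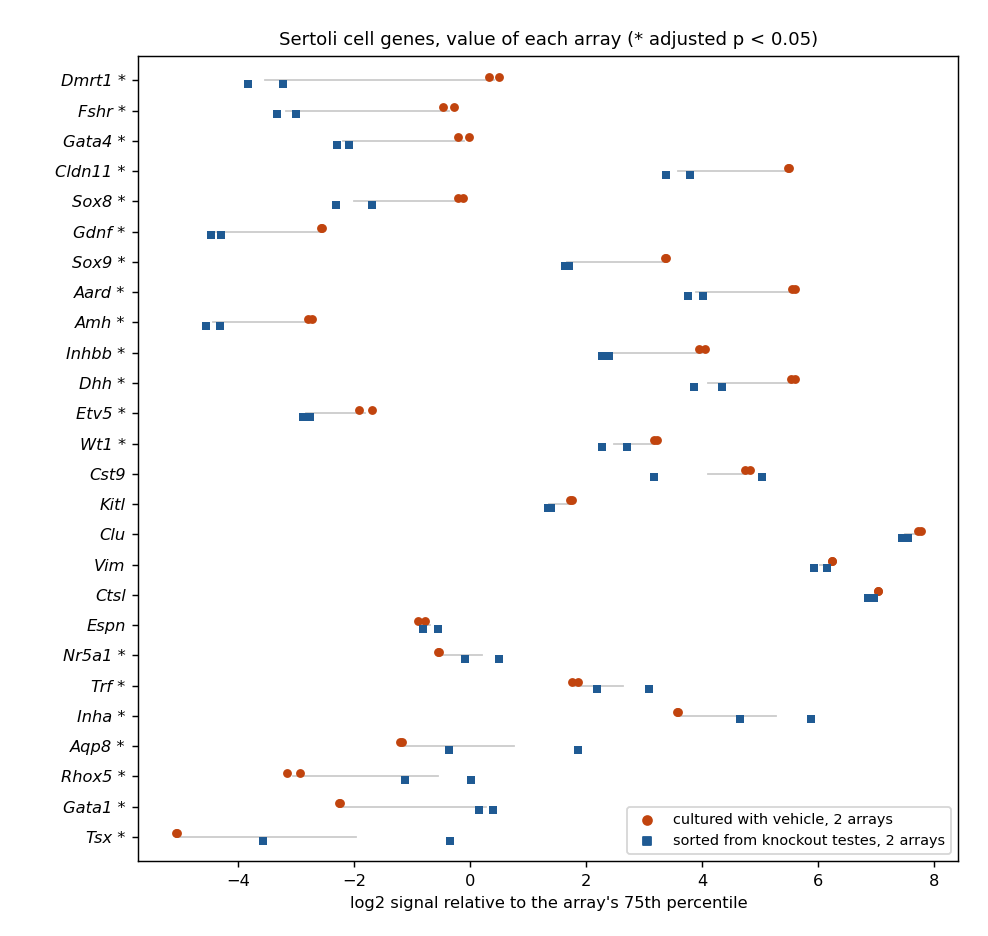
Level of 26 of the 27 tested Sertoli genes on each array, in log2 signal relative to the 75th percentile, with cultured arrays as circles and knockout arrays as squares. The paired circles lie close together, the squares of Tsx, Aqp8 and Cst9 lie far apart, and the genes run from Dmrt1, highest in culture relative to knockout, to Tsx, lowest.

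The description of both preparations as poor in germ cell RNA held for the knockout cells but only in part for the cultured cells. Among 18 spermatocyte genes with a probe, 18 were detected on both cultured arrays, 3 on both knockout arrays and 11 on neither knockout array. Most of them thus entered the test through the cultured side alone. Of the 3 detected on all 4 arrays, Ybx2, an RNA-binding protein of germ cells, was higher in culture (1.8, adjusted p = 4.89e-05) and H1f6, a testis linker histone, lower (-1.75, adjusted p = 3.94e-05). The chaperone gene Hspa2 did not pass (0.15, adjusted p = 0.408), and its difference was 0.35 without the second knockout array. The largest rise among the named genes was of Tex101, a surface protein of spermatocytes and later germ cells, at 2.68 and 2.73 in culture against -6.96 and -7.00 in knockout cells, where neither array detected it (at least 301-fold, adjusted p = 6.54e-08). Ldhc, the germ cell lactate dehydrogenase, was at 3.43 and 3.48 in culture and at -3.11 and -7.64 in knockout cells (8.83, SE 1.24, adjusted p = 0.000655). Transcripts of the synaptonemal complex, the protein zipper between paired meiotic chromosomes, behaved alike: Sycp1 was at least 32.0-fold and Sycp2 at least 11.9-fold higher in culture, and Sycp3 was at 0.01 and -0.14 in culture against -7.84 and -4.74 in knockout cells.

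Premeiotic genes were present in culture as well. Dazl, an RNA-binding protein of early germ cells, was at 0.38 and 0.26 in culture and undetected in knockout cells (at least 57.5-fold). Ddx4, the germ cell RNA helicase also called Vasa, was at 0.65 and 0.63 in culture against -4.45 and -4.22 in knockout cells (4.97, SE 0.20, adjusted p = 3.06e-06). Stra8, which RA induces at entry into meiosis, was at 0.04 and 0.02 with vehicle, at 4.0 and 3.89 with RA, and at -5.71 and -5.62 in knockout cells, where it was undetected (at least 47.1-fold higher with vehicle). Nanos3 itself, the gene that names the knockout, was at -4.40 and -4.20 in culture and undetected at -7.03 and -7.19 in knockout cells. It was at least 2.34-fold higher in culture (adjusted p = 0.000408), but the difference did not pass with normexp (adjusted p = 0.548) or in a model of all 34 arrays (adjusted p = 0.0987). Kit did not follow and was lower in culture (-1.98 and -1.96 against 3.75 and 1.97, difference -4.83, SE 0.49, adjusted p = 0.000136), and Leydig cells and other interstitial cells also express Kit. Sall4 was lower by the probe used (-1.26, adjusted p = 0.000436), but its detected probes ran from -1.26 to 2.58. Of 11 tested spermatogonial genes, 11 were detected on both cultured arrays and 6 on both knockout arrays. In culture 6 were higher and 2 lower (median 1.24), but 3 were higher and 3 lower with normexp (median -0.20).

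Spermatid signal was low on both sides compared with sorted WT cells. Of 19 spermatid genes with a probe 10 were not tested, and 9 of these were below background on all 4 arrays, among them Akap4, Odf1, Smcp and Acrv1, which encode parts of the sperm tail and head. Prm2, the protamine that packs sperm DNA, was at -6.29 and -6.87 in culture and at -4.71 and -4.05 in knockout cells (-2.20, SE 0.31, adjusted p = 0.000629), against 8.18 and 7.66 in cells sorted from WT testes. The summed spermatid signal was 3.36 and 3.57 times the 75th percentile in culture and 0.877 and 0.925 in knockout cells, compared with 863 and 562 in sorted WT cells. Much of the cultured sum came from Cox8c, a testis-specific subunit of cytochrome oxidase, at 1.21 and 1.34 in culture and undetected in knockout cells (at least 112-fold). Of the 9 spermatid genes tested 3 were higher and 3 lower, near the shares of all tested genes. Summed spermatocyte signal was 26.6 and 27.5 in culture, 4.14 and 5.23 in knockout cells, and 200 and 145 in sorted WT cells. By gene the order against sorted WT cells varied, since cultured minus WT was -3.54 for Ldhc, 0.11 for Sycp1, 0.85 for Tex101 and 1.77 for Sycp3. Which cells in the culture gave these signals was not tested, and in bulk RNA fewer cells of a type and less RNA per cell cannot be told apart.

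The knockout cells, in turn, held transcripts of other somatic cells that were scarce in culture. Cells sorted from WT testes held Leydig and endothelial transcripts too, as the sums given below show. Of 14 listed Leydig genes 13 had a probe, 12 of these were lower in culture and none higher (median -5.91, and -5.97 to -4.06 under the other scalings and background correction). Leydig cells make testosterone in the space between the tubules. Cyp17a1, their 17-alpha-hydroxylase, was at -2.83 and -2.66 in culture and at 7.26 and 5.19 in knockout cells, a 502-fold difference (-8.97, SE 0.57, adjusted p = 1.7e-05). Lhcgr, the receptor for luteinizing hormone, and Sult1e1, an estrogen sulfotransferase, were undetected in culture, at least 106-fold and at least 4820-fold lower. Star, which moves cholesterol into mitochondria, differed less, at 3.20 and 3.20 in culture against 5.38 and 4.14 (-1.56, SE 0.35, adjusted p = 0.0058). Scarb1, a lipoprotein receptor that Sertoli cells also use, did not pass (-0.78, SE 0.37, adjusted p = 0.0988), and its difference was -1.43 without the second knockout array. Insl3, a peptide hormone of Leydig cells, had no probe matched to its name, but a probe named Jak3 was among the largest falls, at -4.18 and -3.81 in culture and 8.90 and 8.57 in knockout cells. In the RefSeq annotation the Jak3 gene model overlaps the whole of Insl3, so this probe may read either gene.

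Macrophage and endothelial genes followed the same pattern. Of 15 macrophage and immune genes with a probe 14 were lower in culture and none higher (median -5.74), although 1 was higher under another scaling. Ptprc, the pan-leukocyte surface protein CD45, was at -6.16 and -5.95 in culture and at 0.09 and 2.07 in knockout cells (-7.13, SE 0.61, adjusted p = 6.4e-05). The complement genes C1qa and C1qc, made by tissue macrophages, were 292-fold and 453-fold lower. Cd14 did not pass, at 2.21 and 2.19 in culture against 2.0 and 1.07 (0.66, SE 0.27, adjusted p = 0.0609). Its difference was 1.13 without the first knockout array. Of 11 endothelial genes 10 were lower and none higher (median -4.77). Cdh5, the cadherin of vessel walls, was at -2.83 and -2.75 in culture and at 0.93 and -0.20 in knockout cells (-3.15, SE 0.38, adjusted p = 0.00033). Cldn5, a tight junction gene of vessels that some Sertoli cells also express, was 164-fold lower.

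The 2 knockout arrays did not carry these cells in equal parts. Summed Leydig signal was 50.5 and 52.1 times the 75th percentile in culture, against 1120 on the first knockout array and 590 on the second. Summed macrophage signal was 10.2 and 10.7 in culture, against 221 and 497, so the sum was larger on the second knockout array. Cd74, H2-Ab1, H2-Aa and Cd14 of that list went the other way and were higher on the first knockout array. Endothelial signal was 1.40 and 1.42 in culture, against 48.1 and 14.7, and interstitial fibroblast signal 41.7 and 42.0, against 58.5 and 127. By these sums the first knockout array was richer in Leydig and endothelial transcripts and the second in macrophage and fibroblast transcripts. Each of these sums was higher on both knockout arrays than on both cultured arrays. In sorted WT cells the Leydig sums were 1570 and 1580 and the endothelial sums 48.6 and 35.1. High Leydig and endothelial signal was thus shared by both sorted preparations. The WT macrophage sums, 60.8 and 91.3, lay between culture and knockout cells. The WT fibroblast sums, 31.5 and 31.7, lay below both. Calls on the Leydig list stayed at 12 or 13 lower when any 1 of the 4 arrays was left out, on the macrophage list at 13 or 14, and on the endothelial list at 9 to 11.

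Peritubular myoid, fibroblast and duct genes gave mixed counts. Among 10 peritubular myoid genes, which belong to the contractile cells around the tubule, 3 were higher and 5 lower in culture (median -0.65), with 1 to 4 higher and 3 to 6 lower when 1 array was left out. Myh11, smooth muscle myosin, was at -1.29 and -1.04 in culture against 2.72 and 1.58 (-3.31, SE 0.36, adjusted p = 0.000184), and Des, the muscle filament desmin, was lower by a difference of -2.31 (SE 0.23). Acta2, smooth muscle actin, was higher by the probe used (1.06, SE 0.27, adjusted p = 0.0114), but its 3 detected probes ranged from -0.57 to 1.06 and their mean gave 0.00 (adjusted p = 0.994), and the call was lost without the second cultured array (adjusted p = 0.0561). Of 9 fibroblast genes 7 were lower and 1 higher (median -1.10), but 4 were lower under median scaling and 4 to 7 when 1 array was left out. Pdgfra, a growth factor receptor, had the smallest adjusted p (-3.34, SE 0.28, adjusted p = 5.92e-05), and Lum, a matrix proteoglycan, the largest difference (-4.84, adjusted p = 0.00236). For 8 tested genes of the rete testis and excurrent ducts, 4 were lower and 1 higher (median -0.94). Only 3 erythroid genes were tested, of which Hba-a1, alpha globin, was undetected in culture (at least 33.1-fold lower).

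**Figure D3:**
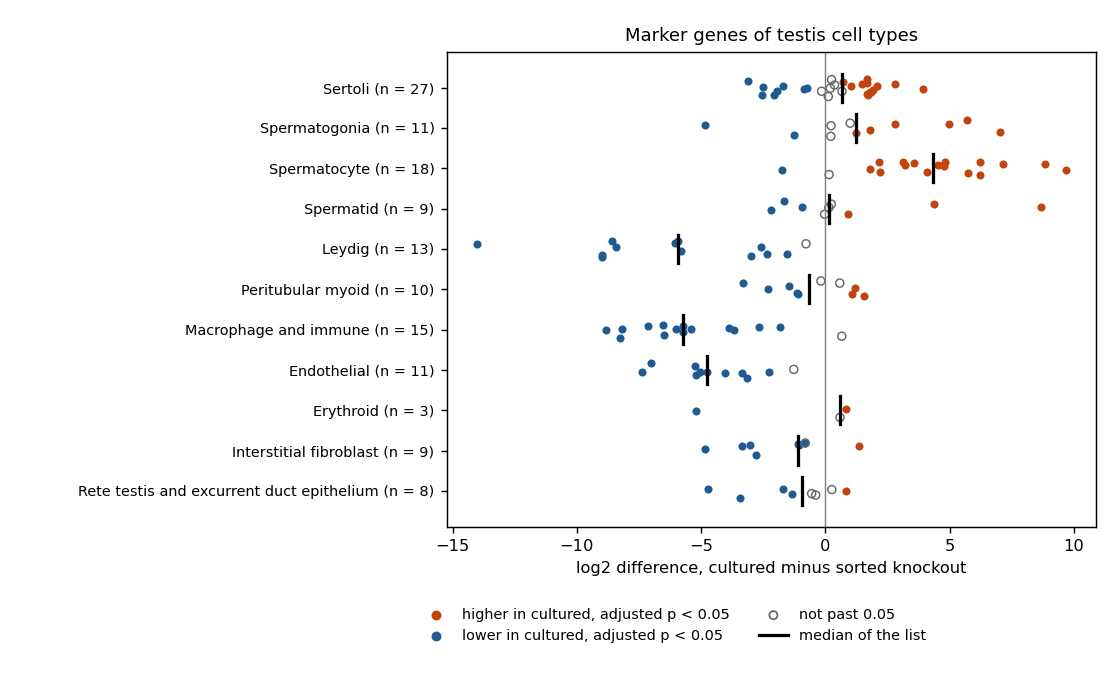
Difference in log2 signal, cultured minus sorted knockout, for each tested marker gene of 11 testis cell types, with black bars at each list's median and n the number of tested genes. Spermatocyte markers lie mostly right of 0, and Leydig, macrophage and endothelial markers almost all left of it.

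Cell cycle genes were higher in culture almost without exception. Adult Sertoli cells are taken to be out of the cycle, whereas genes of replication and mitosis mark dividing cells. Of 21 DNA replication genes with a probe 20 were higher in culture and none lower (median 2.0), and of 21 mitosis genes likewise 20 and none (median 3.1). Over the other scalings, the background correction and the fits without 1 array, the counts were 19 to 21 on each list, and no member was lower. Ccna2, the cyclin of S phase and G2, was at 2.68 and 2.67 in culture and at -0.18 and -0.87 in knockout cells (3.20, SE 0.21, adjusted p = 2.07e-05). Top2a, the topoisomerase that untangles chromosomes, was at 0.86 and 0.87 in culture and at -2.61 and -4.09 in knockout cells (4.21, SE 0.41, adjusted p = 0.000121). Cdk1, the mitotic kinase, was 6.97-fold higher, and Cdc20, which activates the anaphase-promoting complex, 4.70-fold higher. Foxm1, a transcription factor of G2 genes, was at 0.77 and 0.81 in culture and at -2.44 and -2.43 in knockout cells (3.23, SE 0.09, adjusted p = 1.1e-06). In these genes RA-treated culture stood near vehicle, with Ccna2 at 2.83 and 2.82.

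The replication genes rose by smaller steps. Cyclin E2 (Ccne2), which drives entry into S phase, was at -2.07 and -2.29 in culture and undetected in knockout cells (at least 10-fold), although with normexp the difference of 0.51 did not pass (adjusted p = 0.0987). Mcm3 and Mcm5, subunits of the replicative helicase, were 4.49-fold and 4.44-fold higher, E2f1, the factor that switches on S phase genes, 4.94-fold, and the sliding clamp gene Pcna 2.07-fold. Pola1 missed the threshold (0.52, SE 0.20, adjusted p = 0.0548), as did the centromeric histone gene Cenpa (1.02, SE 0.50, adjusted p = 0.107). Without the second knockout array their differences were 0.75 and 1.92. Pola1 passed under several other settings, the replicate block among them (0.52, adjusted p = 0.0449). Meiotic germ cells use part of the same machinery, and spermatocyte genes were higher in the same arrays. Whether the cell cycle signal came from Sertoli, germ or other cells was not tested. Summed mitosis signal was 148 and 142 times the 75th percentile in culture and 24.3 and 20.4 in knockout cells. It was 265 and 271 in whole testes, where germ cells divide. Summed DNA replication signal was instead highest in culture, at 157 and 149, against 56.9 and 63.2 in knockout cells and 78.4 and 81.0 in whole testes.

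Because mitosis genes moved together, their promoters were searched for the 2 elements known from G2 and M phase genes, the CHR (letters TTTGAA) and the CCAAT box (letters CCAAT), on both strands. The window ran from 250 bases before to 50 after each start in the RefSeq set (GRCm38.p6). Counts are over listed genes with a window, whether or not a probe was matched, so they include Mki67 here and Myl9 among the actin genes below. A CHR was in 12 of 17 mitosis promoters with a window (70.6%), against 20.2% of 27025 promoters, and a CCAAT box in 15 of 17 (88.2%), against 41.1%. Of 18 DNA replication promoters 3 held a CHR (16.7%). An E2F site (letters TTTCCCGC, TTTGGCGC, TTTCGCGC or TTTGCCGC) was in 7 of these 18 (38.9%), against 2.60% of all promoters and 1 of 17 mitosis promoters. The upstream stretches of 3 mitosis genes are shown for the spacing of their elements, with each CHR and CCAAT box, in either orientation, in capitals. Cdc20 is at chr4:118437344-118437463 (minus strand), Top2a at chr11:99024190-99024309 (minus strand) and Cdk1 at chr10:69352913-69353032 (minus strand), and each stretch ends at the base before the start site.
Cdc20: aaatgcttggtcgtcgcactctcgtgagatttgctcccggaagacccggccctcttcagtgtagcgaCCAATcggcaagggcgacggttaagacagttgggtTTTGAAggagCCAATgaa
Top2a: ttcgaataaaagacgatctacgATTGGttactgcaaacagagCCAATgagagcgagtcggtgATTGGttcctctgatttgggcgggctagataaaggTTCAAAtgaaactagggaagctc
Cdk1: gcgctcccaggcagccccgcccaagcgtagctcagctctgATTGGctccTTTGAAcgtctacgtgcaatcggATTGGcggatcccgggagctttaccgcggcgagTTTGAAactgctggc
Each of the 3 promoters holds a CHR within 71 bases of the start and a CCAAT box upstream of it. A match is a description of these letters and says nothing of binding in these cells. The lists were written from known genes of each process, so the counts describe the lists and test nothing.

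Inhibitors of the cycle and D cyclins differed by gene. Of 15 listed 6 were higher and 2 lower, a share of higher calls near that of all tested genes (median 0.33, but -0.10 with 4 higher under normexp, and up to 5 lower when 1 array was left out). Ccnd2, a D cyclin, was at 4.92 and 4.89 in culture and at 1.47 and 2.12 in knockout cells (3.11, SE 0.19, adjusted p = 1.59e-05), whereas Ccnd3 was lower (-1.87, SE 0.28, adjusted p = 0.00091). The inhibitors Cdkn2b (p15) and Cdkn1a (p21) were 7.15-fold and 3.97-fold higher, and Cdkn1c (p57), a brake of resting cells, 2.78-fold lower. Of 15 genes known as targets of p53, the factor that answers DNA damage, 10 were higher and 2 lower (median 1.48). Perp was at 3.80 and 3.75 in culture and at 1.16 and 0.92 in knockout cells (2.73, SE 0.18, adjusted p = 2.07e-05), and Ccng1 rose by 2.72 (SE 0.11, adjusted p = 3.1e-06). Bax, which opens mitochondria in cell death, was 2.78-fold higher, while Trp53inp1 was 1.57-fold lower, a call lost under median scaling (-0.29, adjusted p = 0.226).

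Genes of the actin cytoskeleton, of the serum response factor (SRF) and of YAP, a factor that responds to stiffness and spreading, were higher as a group. In culture 21 of 24 such genes with a probe were higher and 1 lower (median 1.40, and 1.39 to 1.77 under the other scalings and background correction). Ankrd1, a YAP target, was at 2.17 and 2.13 in culture and at -4.38 and -6.94 in knockout cells (7.80, SE 0.75, adjusted p = 0.000106). It was at -0.15 and -0.07 in RA-treated culture and at -7.92 and -6.92 in sorted WT cells, so its high level was seen in both cultures. The matricellular genes Ccn1 and Ccn2, also YAP targets, were 11.2-fold and 5.24-fold higher. Tagln2, an actin-binding protein, was at 5.69 and 5.72 in culture and at 2.09 and 2.06 in knockout cells (3.63, SE 0.16, adjusted p = 3.69e-06), and Vcl, the focal adhesion protein vinculin, rose by 2.31 (SE 0.13). Cytoplasmic gamma actin, Actg1, was at 6.70 and 6.78 in culture and at 5.69 and 5.07 in knockout cells (1.36, SE 0.19, adjusted p = 0.000658). Srf itself rose slightly (0.50, SE 0.14, adjusted p = 0.0179), a call lost without the first knockout array (0.36, adjusted p = 0.0521) or the first cultured array (0.41, adjusted p = 0.11). Cnn1, a smooth muscle calponin, was the single member that fell (-1.15, SE 0.34, adjusted p = 0.0194), also lost without the first cultured array (-0.97, adjusted p = 0.103).

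A CArG box, the element that SRF binds, was in the window of 7 of 24 promoters of this list (29.2%), against 1.81% of all 27025 promoters. The list was written to include SRF targets, so this count describes the list and tests nothing. The upstream stretches of Actg1 (chr11:120348496-120348595, minus strand) and Srf (chr17:46556163-46556262, minus strand), both of GRCm38.p6, are shown with their CArG boxes in capitals.
Actg1: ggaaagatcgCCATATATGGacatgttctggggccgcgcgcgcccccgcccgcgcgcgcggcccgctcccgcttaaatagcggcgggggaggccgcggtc
Srf: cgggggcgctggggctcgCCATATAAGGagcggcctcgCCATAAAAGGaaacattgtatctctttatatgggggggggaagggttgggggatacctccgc
Actg1 holds 1 box and Srf holds 2 in these 100 bases.

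Intermediate filament genes rose too, neuronal ones included. Of 14 tested members 11 were higher and 1 lower (median 1.81). Nefl, the light neurofilament chain, was at 1.99 and 2.0 in culture and at -3.38 and -6.67 in knockout cells (7.02, SE 0.91, adjusted p = 0.000432), and undetected or near background in sorted WT cells (mean -7.83). Nefm, the medium chain, was at 2.62 and 2.51 in culture against -1.92 and -4.49 (5.77, SE 0.70, adjusted p = 0.000326). Krt18, a simple-epithelium keratin that immature Sertoli cells express, was 8.26-fold higher and the stem cell filament gene Nes 5.24-fold. Vim, the filament gene of resting Sertoli cells, was at 6.24 and 6.24 in culture against 5.93 and 6.15 and did not pass (adjusted p = 0.211). It passed under median (0.56) and quantile scaling (0.43) and with normexp (0.44).

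The extracellular matrix list showed the same direction with some exceptions. Of 22 collagens and matrix genes 14 were higher and 2 lower (median 1.77), with 1 to 6 lower when 1 array was left out. Tnc, tenascin C, a protein of remodelling matrix, was at 0.73 and 0.92 in culture and undetected in knockout cells (at least 81.9-fold). Thbs1, thrombospondin, was at 1.43 and 1.76 in culture against -4.67 and -7.31 (7.58, SE 0.73, adjusted p = 0.000108). The basement membrane collagen genes Col4a1 and Col4a2 were 5.01-fold and 3.31-fold higher, and Col18a1, at 6.37 and 6.35 in culture against 3.89 and 3.99, 5.34-fold. Col3a1, a fibroblast collagen, did not pass (-0.73, SE 0.52, adjusted p = 0.249), and its difference was -1.67 without the first knockout array. Col6a1 was lower (-1.85, SE 0.55, adjusted p = 0.0198), a call lost without either cultured array (adjusted p = 0.0922 and 0.0554). Among 16 proteases and inhibitors of the matrix 13 were higher and 2 lower (median 1.49). Timp1, an inhibitor of metalloproteases, was at 6.36 and 6.52 in culture and at 2.93 and 1.55 in knockout cells (4.20, SE 0.38, adjusted p = 8.69e-05). Cst3, cystatin C, was 2.59-fold lower.

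Junction genes of the blood-testis barrier were mostly higher in culture. Of 17 tested tight junction genes 10 were higher and 2 lower (median 0.81), and both that fell, Cldn5 and Esam, are also on the endothelial list. Cldn11, the claudin that Sertoli cells need for the barrier, was at 5.51 and 5.48 in culture and at 3.38 and 3.80 in knockout cells (1.90, SE 0.17, adjusted p = 8.31e-05), and at 1.07 and 1.42 in sorted WT cells. Jam2, a junctional adhesion molecule, was 4.94-fold higher and Cxadr, the coxsackie and adenovirus receptor of tight junctions, 9.26-fold. F11r did not pass, at 6.00 and 5.87 in culture against 5.54 and 6.26 (0.04, SE 0.23), and its difference was 0.40 without the second knockout array. Of 21 adhesion and gap junction genes 14 were higher and 4 lower (median 0.77). Cdh3, P-cadherin, was at 1.49 and 1.42 in culture and undetected in knockout cells (at least 126-fold), and Cdh2, N-cadherin, rose by 2.47 (SE 0.27, adjusted p = 0.000188). Gja1, connexin 43 of the gap junctions between Sertoli and germ cells, was lower, at 0.76 and 0.68 in culture against 2.36 and 2.83 (-1.88, SE 0.15, adjusted p = 5.1e-05). Vcam1, an adhesion receptor of vessels and interstitial cells, was 160-fold lower.

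**Figure D4:**
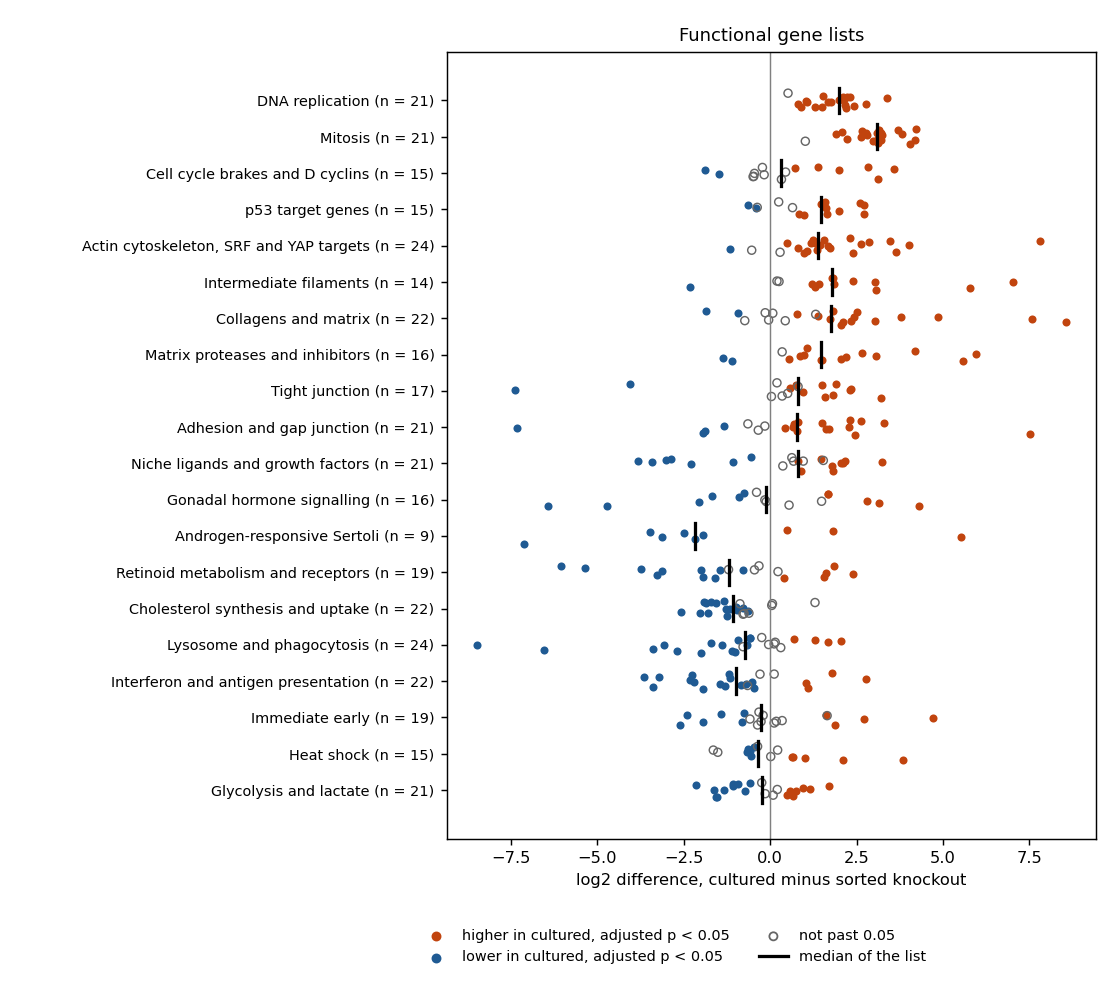
Difference in log2 signal, cultured minus sorted knockout, for each tested gene of 20 functional lists, with black bars at each list's median and n the number of tested genes. Replication and mitosis genes lie right of 0 with a narrow spread, matrix and filament genes reach far right, and cholesterol genes lie mostly left.

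Hormone signalling genes split, and the median of the list changed sign with the scaling (-0.13, and -0.25 to 0.23 under the others). Of 16 tested genes 5 were higher and 6 lower (31.2% and 37.5%), near the shares of all tested genes (33.1% and 36.0%). Inhba, the inhibin and activin beta A subunit, was at 3.19 and 3.26 in culture and at -1.69 and -0.50 in knockout cells (4.32, SE 0.35, adjusted p = 4.86e-05), and Fst, follistatin, which binds activin, was 8.93-fold higher. Nr0b1, the nuclear receptor Dax1 that represses steroid synthesis genes, was at -4.27 and -4.07 in culture and at 2.16 and 2.31 in knockout cells (-6.41, SE 0.16, adjusted p = 6.92e-07). With RA in the medium Nr0b1 had a mean of 2.30. Esr1, the estrogen receptor of Leydig and duct cells, was undetected in culture (at least 5.23-fold lower). All 9 tested androgen-responsive Sertoli genes passed, 3 higher and 6 lower (median -2.18). Drd4, a dopamine receptor gene induced by androgen in Sertoli cells, was at -3.99 and -3.95 in culture and at 2.24 and 4.04 in knockout cells (-7.11, SE 0.52, adjusted p = 3.1e-05), and the protease inhibitor gene Eppin was 11-fold lower. Tsx, at -5.08 and -5.05 in culture, differed on the 2 knockout arrays (-0.34 and -3.57), and its call was lost without either cultured array (adjusted p = 0.0691 and 0.0672). The homeobox gene Rhox2a went the other way and was at least 18.8-fold higher in culture. Its mean was -1.30 in culture, -4.43 in sorted WT cells and -0.64 in whole testes, and which cells gave its signal was not tested.

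Retinoic acid is made from retinol by retinol and retinal dehydrogenases, acts through the RAR and RXR receptors, and is cleared by CYP26 enzymes, whose genes it induces in turn. Of 19 tested retinoid genes 5 were higher and 10 lower in culture (median -1.20, and -1.21 to -0.68 under the other scalings and background correction), with 3 higher under normexp. Genes that RA is known to induce were among the lowest. Cyp26a1 was undetected in culture, at -6.45 and -6.65, against -1.82 and -3.85 in knockout cells (at least 12.6-fold lower, adjusted p = 0.00142). Cyp26b1, the CYP26 enzyme of peritubular and Sertoli cells, was at -3.00 and -2.87 in culture and at 2.08 and 2.78 in knockout cells (-5.36, SE 0.27, adjusted p = 6.67e-06). Dhrs3, a retinal reductase that lowers RA, was at -2.86 and -2.62 in culture and at 3.28 and 3.34 in knockout cells (-6.05, SE 0.12, adjusted p = 2.48e-07). Stra6, the retinol uptake receptor, was 3.04-fold lower and Rdh10, a retinol dehydrogenase, 2.71-fold. With RA in the medium the means were 2.88 for Cyp26a1, 0.82 for Cyp26b1, 2.47 for Dhrs3, 0.10 for Stra6 and 1.61 for Rdh10, each above the vehicle arrays. In sorted WT cells the means were -2.22 for Cyp26a1, -1.87 for Cyp26b1, 3.44 for Dhrs3, 1.40 for Stra6 and -2.11 for Rdh10. For Cyp26b1 and Rdh10 the WT mean lay nearer to vehicle culture than to knockout cells, and for Cyp26a1, Dhrs3 and Stra6 it lay nearer to knockout cells.

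The receptors and the RA-making enzymes did not move as one. Rarb, which carries a textbook RA response element, was at -4.94 and -4.69 in culture and at -1.66 and -3.99 in knockout cells (-1.99, SE 0.64, adjusted p = 0.0273), and the call was lost without either cultured array (adjusted p = 0.108 and 0.0773). Rara, the receptor of Sertoli cells in RA signalling, was at -3.94 and -3.84 in culture and at -5.34 and -5.64 in knockout cells, where 1 array detected it, and its difference of 1.61 (SE 0.25, adjusted p = 0.00109) turned to -0.37 with normexp. Rxra was lower by the probe used, at 1.42 and 1.40 in culture against 4.42 and 4.91 (-3.26, SE 0.19, adjusted p = 1.17e-05), but its other detected probe gave 0.21. Among retinal dehydrogenases, Aldh1a2 was higher (1.84, SE 0.34, adjusted p = 0.00235), Aldh1a3 lower (-1.94, SE 0.18, adjusted p = 9.55e-05), and Aldh1a1 lower (-0.78, SE 0.10, adjusted p = 0.0005), a call lost under quantile scaling (-0.16, adjusted p = 0.186).

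The window of 2 of 18 retinoid promoters held a DR5 element, a direct repeat of the RAR half-site with a spacer of 5 bases, against 31 of 27025 promoters (0.115%). They are those of Cyp26a1 (chr19:37697708-37697807, plus strand) and Rarb (chr14:16575477-16575576, minus strand) in GRCm38.p6, shown with the element in capitals. 
Cyp26a1: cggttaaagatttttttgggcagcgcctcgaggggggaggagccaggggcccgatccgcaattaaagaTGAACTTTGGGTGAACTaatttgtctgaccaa
Rarb: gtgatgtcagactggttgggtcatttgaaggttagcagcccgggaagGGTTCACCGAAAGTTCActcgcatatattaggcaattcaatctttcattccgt
The element lies 32 to 16 bases before the start of Cyp26a1 and 53 to 37 bases before that of Rarb. Both genes were lower in vehicle culture than on either knockout array, and no such element was in the window of Cyp26b1, Dhrs3 or Stra6. The list was written to include genes known to respond to RA, so the count describes the list and tests nothing.

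**Figure D5:**
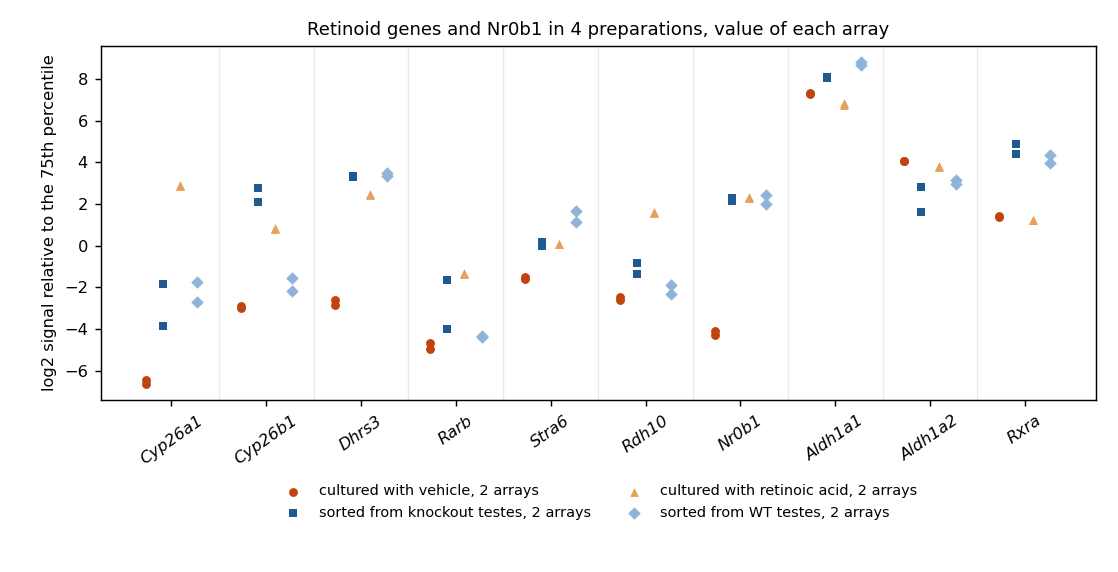
Level of 9 retinoid genes and Nr0b1 on each array, in log2 signal relative to the 75th percentile, in vehicle culture, sorted knockout cells, RA-treated culture and sorted WT cells. For Cyp26a1, Cyp26b1, Dhrs3, Rarb, Stra6, Rdh10 and Nr0b1 the vehicle arrays lie below both the knockout arrays and the RA-treated arrays.

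Sterol synthesis genes were lower in culture. Of 22 genes of cholesterol synthesis and uptake 15 were lower and none higher (median -1.07), though 2 were higher under median scaling, with 13 to 20 lower when 1 array was left out. Dhcr7, which makes cholesterol in the last step, was at 3.64 and 3.62 in culture and at 6.50 and 5.91 in knockout cells (-2.58, SE 0.18, adjusted p = 2.67e-05). Hmgcs1, an early enzyme, was lower by less (1.72-fold). Leydig cells make much cholesterol, their summed marker signal was higher on the same knockout arrays, and their part in the sterol result was not tested.

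Lysosome and phagocytosis genes were lower in part. Of 24 members 14 were lower and 4 higher (median -0.73). Ctss, a cathepsin of macrophages, was 93.2-fold lower. Of the 3 TAM receptors, through which Sertoli cells engulf dying germ cells, Mertk was lower (-3.07, SE 0.19, adjusted p = 1.57e-05), and Tyro3 and Axl were higher (2.04 and 1.31). Of 22 interferon and antigen presentation genes 15 were lower and 4 higher (median -0.99). Ifit3, an interferon-induced gene, was at -3.24 and -3.25 in culture and at -0.45 and 1.24 in knockout cells (-3.63, SE 0.47, adjusted p = 0.000432). Macrophage genes were higher on the same knockout arrays, and their part in these 2 lists was not tested.

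Growth factors and ligands of the germ cell niche divided by gene. Of 21 tested members 9 were higher and 7 lower (42.9% and 33.3%, against 33.1% and 36.0% of all tested genes). The median of 0.82 was -0.28 with normexp. The platelet-derived growth factor genes Pdgfa and Pdgfb were 4.11-fold and 9.54-fold higher, and Wnt4, a Wnt ligand of early gonads, was at 2.13 and 2.08 in culture against 0.42 and 0.24 (1.78, SE 0.20, adjusted p = 0.00022). Cxcl12, the chemokine that holds stem cells in their niche, was lower, at 0.05 and 0.29 in culture against 4.31 and 3.67 (-3.83, SE 0.21, adjusted p = 9.08e-06), and Wnt6 was 10.6-fold lower. Sertoli cells feed germ cells with lactate, and of the 21 glycolysis and lactate genes 7 were higher and 10 lower (33.3% and 47.6%). The share higher was near that of all tested genes. The median (-0.24) was 0.13 under median scaling, and the counts moved when 1 array was left out. The lactate exporter gene Slc16a3 was at 2.24 and 2.27 in culture and at 4.47 and 4.33 in knockout cells (-2.14, SE 0.11, adjusted p = 8.27e-06). Of the glucose carrier genes Slc2a1 was 2.96-fold lower and Slc2a3 3.26-fold higher, while Ldha did not pass (0.21, SE 0.12, adjusted p = 0.16). It passed under median (0.58) and quantile scaling (0.40) and with the mean of its probes (0.74), and its difference was 0.31 without the first knockout array.

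Several of the genes with the largest differences are known from other cells than Sertoli cells. Beside Tex101, Ldhc, Tnc, Ankrd1, Thbs1 and Cdh3, the 10 largest rises held Rbmy, Tex19.1, Cox8c and Mael, which are genes of germ cells. Rbmy, a Y-linked RNA-binding protein of spermatogonia, was at least 154-fold higher in culture, Tex19.1 at least 116-fold and the piRNA factor Mael at least 130-fold. The 10 largest falls, beside Sult1e1 and Jak3, were of Hsd3b2, Klk1b24, Bhmt, Klk1b27, F13a1, Ces1d, Hao2 and Cbr2. Hsd3b2, a steroid dehydrogenase, was undetected in culture and at 5.60 and 5.80 in knockout cells (at least 4770-fold lower). Hsd3b2 and both Klk1b genes have near-identical relatives, and which of these their probes read is uncertain. F13a1, a coagulation factor subunit found in macrophages, was at 1.17 and 6.01 on the 2 knockout arrays, and Cbr2, a carbonyl reductase, at 2.75 and 7.29, so the knockout arrays differed widely while both lay above culture.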

How the data were processed

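The deposited values are spot intensity on one-colour Agilent arrays, read per the file headers with Agilent Feature Extraction 9.5.3.1, which subtracts background. Other deposited columns are 0 or 1 marks per spot, per the file headers. The deposited series table holds this same processed intensity, with no scaling across arrays by the authors. Control and outlier spots were left out, and replicate spots averaged as log2 values. Of 41174 probes, 23374 were named through RefSeq accessions and 63 by symbol, and 17737 kept the file's identifier. The probe with the highest mean signal stood for a gene. Log2 signals were set relative to each array's 75th percentile and fitted with limma 3.58.1 in R 4.3.3, in 1 model of 10 arrays in 5 groups (5 residual degrees of freedom), with two-sided moderated tests and Benjamini-Hochberg adjustment over all tested genes. With 2 arrays a group, their number limits the precision.

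A fold against a side detected on neither array is a lower bound, taken per array against the dimmest signal that still passed the background mark, or the probe's own value where that was higher. Of tested genes 6 lacked a usable spot on 1 of the 4 arrays. On simulated data, with 50 genes changed at each size, 23 of 50 were recovered at a log2 change of 1 and 48 of 50 at 4. There were 7 false calls among 20467 unchanged genes. The simulation changed few genes, whereas 69.1% of tested genes were called here. It also gave each gene 1 SD for all groups, although the knockout arrays varied more. Its rates therefore do not carry over to this comparison. The members, the 35 lists and the named genes were chosen with earlier results of these data known. Named are a panel of 30 genes, of which Insl3 and Mki67 had no matched probe, the 10 largest rises and falls, and up to 6 genes per list and direction by adjusted p, with other members where they account for a list. Same-numbered replicates share a number only (r = 0.027 between their deviations). Alternatives changed the scaling, background correction, filter, probe choice, arrays fitted, variance model and minimum fold. They also added a replicate block, took the series values, or left out 1 array. Values of some listed genes are not reported here. Promoter sequences and starts are from RefSeq (GRCm38.p6).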

Additional observations from a re-analysis of the deposited data

How the results depend on the processing

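Each of the 4 arrays was left out in turn, which gave 11807 to 16985 calls in all, 5586 to 7831 of them higher and 6221 to 9350 lower in culture. A fit with the replicate number as a block gave 14137 calls (6743 higher, 7394 lower). A minimum of 2-fold left 9390 calls, 4192 higher and 5198 lower. With no detection filter 14248 genes were lower. Normexp on the median signal gave 11412 calls, and a fit of the 4 arrays alone 10606. In that fit of 4 arrays Wt1, Inha and Star missed the threshold (adjusted p = 0.0607, 0.0515 and 0.0613). Of 166 named genes tested, 12 lost their call in the fit of the 4 arrays alone, 8 and 7 without the first or second cultured array, and 1 and 2 without the first or second knockout array. The block took the call from none and gave 1. Without 1 knockout array the spread came from the other groups, so more calls there are not stronger results. Slide or scan day as a block was not run, because both are aliased with the groups. The knockout slide's noise limits values near background. With normexp the differences of Amh, Nanos3 and Rara turned to -0.11, -0.28 and -0.37, and none of these passed (adjusted p = 0.717, 0.548 and 0.429).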

Other observations

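Stress and early response genes split. Of 19 tested immediate early genes 4 were higher and 6 lower in culture (21.1% and 31.6%, against 33.1% and 36.0% of all tested genes). Their median was -0.26, but 0.10 under median scaling, and the counts moved when 1 array was left out. Fosl1, an AP-1 subunit, was at -2.64 and -2.47 in culture and undetected in knockout cells (at least 7.86-fold), and the growth factor-induced gene Myc was at 1.94 and 1.97 against 0.03 and 0.15 (1.87, SE 0.24). Nr4a1, an orphan receptor induced within minutes of a stimulus, was lower (-1.93, SE 0.28). Of 15 heat shock genes 5 were higher and 5 lower (median -0.36), but none lower under median scaling, where the median was 0.00. The shares of 33.3% in each direction are near those of all tested genes. The small heat shock genes Cryab and Hspb1 were at 3.59 and 3.52, and at 5.45 and 5.41, in culture, against -0.45 and -0.14, and 3.49 and 3.15, in knockout cells. Of 16 oxidant and metal response genes 7 were higher and 7 lower (43.8% in each direction, median -0.20, but 0.17 under median scaling). The metallothionein genes Mt1 and Mt2 were lower (-1.89, SE 0.16, and -2.03, SE 0.22), while Srxn1, which restores peroxiredoxins, was higher (1.99, SE 0.14).

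Targets of ATF4, the factor of the amino acid response, gave 7 higher and 5 lower of 15 (46.7% and 33.3%, against 33.1% and 36.0% of all tested genes, median 0.30). Chac1, a glutathione-degrading enzyme, was at 1.09 and 1.05 in culture against -1.59 and -2.72 (3.23, SE 0.32), and Ddit3, the factor CHOP, was lower (-1.64, SE 0.10). In the Notch pathway 6 of 16 were higher and 6 lower (median 0.01, and -0.41 to 0.37 under the other scalings and background correction). The shares of 37.5% in each direction are near those of all tested genes. Dner, a Notch ligand, was at 1.45 and 1.49 in culture against -5.55 and -4.13 (6.30, SE 0.42), and Hes1, a target, rose by 2.05 (SE 0.18). Another target, Hey1, was lower (-3.27, SE 0.19), as was Notch4, a receptor of vessels (-2.90, SE 0.32). Of 12 iron and vitamin transport genes 6 were lower and 2 higher (median -0.65), with 2 to 4 higher when 1 array was left out. Slc11a2, an iron carrier, was at -1.34 and -1.24 in culture against 1.19 and 1.53 (-2.65, SE 0.19), and the transferrin receptor gene Tfrc was lower as well (-1.38, SE 0.15).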
